A study of Mus musculus with 10 samples.

Results

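Long neuronal genes, grouped by function, were followed through the depletion of Sfpq in a neuroblastoma line. The list holds 59 symbols of genes known for large genomic spans and roles in neurons, picked by size and function. It was chosen with earlier results of these data known, so it is not independent of them. Of these, 57 were found among 23553 named genes, and Lsamp and Auts2 matched no row by name and are not analysed here. The 57 comprise 20 genes of synaptic adhesion and scaffolds, 5 of axon guidance and migration, 10 transcription factors and RNA-binding proteins, 17 signalling and trafficking genes and 5 of the cytoskeleton. No gene span was measured, so "long" describes the choice of genes and was not checked.

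Neuro-2a cells, a mouse neuroblastoma line whose strain is labelled C57BL/6+C57BL/6J+CBA, were transfected with an siRNA against luciferase (Luc, the control, which has no target in these cells) or against Sfpq. All groups shared medium with 2% serum, used in the labels as a differentiation condition. Each siRNA has 3 libraries of poly(A)-selected RNA and 1 library of RNA from which ribosomal RNA (rRNA) was removed. Levels are in RPKM, reads scaled by transcript length and by the reads of the library, so levels of different genes are compared per length. Whether the replicates came from separate cultures is not stated in the labels; the spread that the p-values measure is that of these libraries and may be technical. In RNA from whole cultures, fewer cells of a type and less RNA per cell cannot be told apart.

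Sfpq is a nuclear protein that binds RNA and DNA and takes part in transcription, splicing and paraspeckles. A long gene keeps RNA polymerase II on its template for hours, and many genes of adhesion, synapses and axon guidance in neurons are long because of very large introns. Synaptic adhesion proteins join the membranes of partner neurons, scaffolds anchor receptors beneath them, and guidance cues steer growing axons through receptors on the growth cone.

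Sfpq RNA fell to 7.97% of the Luc mean in poly(A) RNA. In the rRNA-depleted pair 14.4% was left, from 30.8 RPKM in Luc to 4.43 RPKM in Sfpq. The row used, the higher of 2 for Sfpq, is listed as a non-coding transcript. Its poly(A) log2 fold change was -3.54, and the mean of all Sfpq rows gave -3.47. Each poly(A) library held between 10804 and 10949 genes at 1 RPKM or more, and low values gave relative depths of 0.628 to 1.28 against the first Luc poly(A) library. Across genes, which are not independent replicates, poly(A) libraries of a group had a Pearson's r of log2 values of 0.979 to 0.997, with Luc replicate 3 the least like its partners, and libraries of different groups at 0.942 to 0.957. Of 9 markers of neuroblasts, 8 reached 1 RPKM, and their summed level was 182 to 211 RPKM in Luc and 132 to 149 RPKM in Sfpq libraries. Of 22 measured markers of astrocytes, oligodendrocytes, microglia, fibroblasts and muscle, 1 reached 1 RPKM (Myh3, a myosin heavy chain, at 18.8 RPKM in Luc and 22.3 RPKM in Sfpq libraries), and 4 were at 0 in all 6 poly(A) libraries. The part of the lower neuroblast sum in the results was not tested.

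Promoters are shown for 5 members that are taken up below: the guidance cues Slit2 and Slit3, Ppp2r2c and Ctnna2, which fell strongly, and Pde4d, which was not called. They were chosen after the values were seen, among the 8 tested members with exactly 1 entry in the RefSeq promoter table of build GRCm38.p6. Each run holds the 250 bases before the listed start. Capitals mark the GC box, GGGCGG or CCGCCC on the other strand. The runs lie at chr5:47982905-47983154 (Slit2), chr11:35121206-35121455 (Slit3), chr5:36868260-36868509 (Ppp2r2c) and chr13:108653927-108654176 (Pde4d) on the plus strand and at chr6:77979668-77979917 (Ctnna2) on the minus strand, and each is given 5′ to 3′ along its gene.
Slit2: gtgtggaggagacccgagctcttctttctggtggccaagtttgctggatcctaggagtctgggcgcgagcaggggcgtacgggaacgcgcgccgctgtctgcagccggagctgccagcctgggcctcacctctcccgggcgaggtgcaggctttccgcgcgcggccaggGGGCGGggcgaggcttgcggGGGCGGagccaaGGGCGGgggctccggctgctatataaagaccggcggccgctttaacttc
Slit3: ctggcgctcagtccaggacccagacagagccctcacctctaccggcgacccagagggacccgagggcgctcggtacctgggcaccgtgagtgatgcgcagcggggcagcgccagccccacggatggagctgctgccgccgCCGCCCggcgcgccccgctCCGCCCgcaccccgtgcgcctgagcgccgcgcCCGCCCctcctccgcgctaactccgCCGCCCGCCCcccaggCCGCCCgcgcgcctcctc
Ppp2r2c: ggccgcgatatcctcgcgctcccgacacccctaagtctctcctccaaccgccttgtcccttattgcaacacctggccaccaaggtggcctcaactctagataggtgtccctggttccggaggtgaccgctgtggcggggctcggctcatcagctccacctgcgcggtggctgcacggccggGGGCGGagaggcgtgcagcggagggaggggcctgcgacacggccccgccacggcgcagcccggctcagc
Ctnna2: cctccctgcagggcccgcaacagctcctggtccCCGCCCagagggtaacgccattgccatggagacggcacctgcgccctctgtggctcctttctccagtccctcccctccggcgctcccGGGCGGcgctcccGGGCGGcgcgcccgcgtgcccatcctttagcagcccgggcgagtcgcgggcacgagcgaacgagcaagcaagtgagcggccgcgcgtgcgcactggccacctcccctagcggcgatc
Pde4d: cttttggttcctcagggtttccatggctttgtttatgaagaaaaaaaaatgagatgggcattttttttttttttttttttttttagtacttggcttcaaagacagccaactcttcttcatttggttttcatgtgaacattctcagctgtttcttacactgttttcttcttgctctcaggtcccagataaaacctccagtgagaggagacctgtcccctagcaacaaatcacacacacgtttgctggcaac
Slit3 held 6 GC boxes, with overlapping matches counted, and 35 CpG dinucleotides. Slit2 held 3 GC boxes, 25 CpG and a TATA box (TATAAA or TTTATA), and Ctnna2 held 3 GC boxes and 30 CpG. Ppp2r2c held 1 GC box and 23 CpG, while Pde4d held 0 GC boxes and 1 CpG. The members with 1 entry that are not shown, Nbea, Tenm3 and Zbtb20, were all called lower. Nbea held 2 GC boxes and 28 CpG, Tenm3 0 GC boxes and 8 CpG, and Zbtb20 0 GC boxes and 3 CpG. A link between promoter letters and fold change was not tested. Of all 32851 promoter windows of this length in the table, 32.7% held a GC box on either strand and 12.4% a TATA box, and the median held 6 CpG. Matches of letters are descriptions, and the start used in these cells may be another.

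In poly(A) RNA, 16 of the 21 members with enough signal to test fell after Sfpq knockdown, 1 rose (Foxp1) and 4 did not pass the test. The strongest falls were those of Rbms3, to 4.85% of its Luc mean, Gpc6, to 8.42%, and Dpp6, to 10.6%. A gene was called at a limma adjusted p under 0.05, adjusted over all 11727 genes whose mean over the 6 libraries reached 0.5 RPKM. Over those genes 18.6% were called lower and 21.3% higher. By at least 2-fold, 8 members were called lower, against 4.73% of all genes. Of these 8, 5 (Gpc6, Dlg2, Rbms3, Zbtb20 and Dpp6) had an Sfpq mean under 0.5 RPKM and passed the filter through their Luc libraries alone, so their direction was fixed by it; Ppp2r2b, Ppp2r2c and Ctnna2 are the 3 that did not. The members' median log2 fold change was -0.746, against 0.0534 over all genes tested. Because the list was chosen with earlier results of these data known, such contrasts with all genes are descriptions. Fold changes are on the scale log2(RPKM + 0.5), which understates the change of low genes. The same 5 genes enter the count of 16 and the median, which the filter therefore shapes. They also enter the counts and medians of their functional groups below. These are Gpc6 and Dlg2 in adhesion, Rbms3 and Zbtb20 among transcription factors and RNA-binding proteins, and Dpp6 in signalling. The 18.6% of all genes called lower is also the share to set beside those group counts. Every Sfpq library was below every Luc library for 17 of the 21 members, the same 5 included, and for 24.7% of all genes tested. Without Luc replicate 3, the library least like its partners, 17 members were called lower. The other 36 members lay under it and are described further on.

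**Figure D1:**
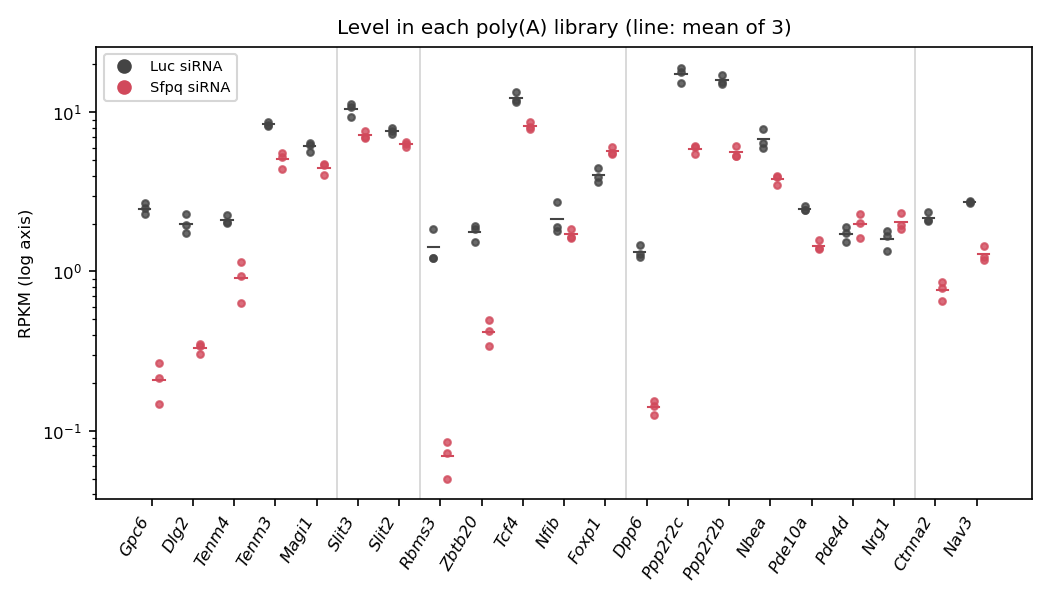
RPKM in each poly(A) library (points, log axis, with lines at the mean of 3) of the 21 members tested, by functional group, with Luc and Sfpq libraries side by side. Sfpq libraries lie wholly below Luc libraries for 17 members, against 24.7% of all genes tested; Slit2 is among the 17 and did not pass the test.

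Among synaptic adhesion and scaffold genes, 5 of 20 were tested, and all 5 fell: Gpc6, Dlg2, Tenm4, Tenm3 and Magi1. Their median log2 fold change was -0.909, and the median level left was 42.9% of Luc. Gpc6, a heparan sulfate proteoglycan of the glypican family that can act in synapse formation, stood at 2.49, 2.28 and 2.68 RPKM in Luc and at 0.146, 0.215 and 0.267 RPKM in Sfpq libraries. Every Sfpq library was far below every Luc library (log2 fold change -2.08, SE 0.128, limma adjusted p = 5.01e-06). Dlg2, the postsynaptic scaffold PSD-93, was at 1.97, 1.75 and 2.28 RPKM in Luc and at 0.302, 0.339 and 0.349 RPKM in Sfpq libraries. The Sfpq libraries were close to each other and kept 16.5% of the Luc level (log2 fold change -1.59, SE 0.128, limma adjusted p = 2.29e-05).

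Teneurins are large transmembrane proteins that bind latrophilins across the synapse. Tenm4 went from 2.01, 2.26 and 2.05 RPKM in Luc to 0.631, 0.942 and 1.14 RPKM in Sfpq libraries, so that the Sfpq libraries were low and spread wider (log2 fold change -0.909, SE 0.153, limma adjusted p = 0.00156). Tenm3, the most abundant adhesion member, was at 8.68, 8.35 and 8.20 RPKM in Luc and at 4.40, 5.55 and 5.24 RPKM in Sfpq libraries. The groups did not overlap, and 60.2% of the Luc level was left (log2 fold change -0.684, SE 0.116, limma adjusted p = 0.00159). Tenm2 lay under the filter, at 0.0551, 0.0894 and 0.0665 RPKM in Luc and 0.0203, 0.0509 and 0.0473 RPKM in Sfpq libraries. Its groups were apart, but with no filter the difference was not past the threshold (limma adjusted p = 0.164).

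Magi1, a scaffold of cell junctions, had the smallest fall of the group. Its levels were 5.66, 6.19 and 6.45 RPKM in Luc and 4.04, 4.75 and 4.67 RPKM in Sfpq libraries (log2 fold change -0.404, SE 0.114, limma adjusted p = 0.0197). The libraries of each group were apart, but the call was lost without any 1 of the Sfpq libraries, with a limma adjusted p of 0.063, 0.0504 and 0.0566 without the first, the second and the third.

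Of the guidance and migration genes, Slit3 fell and Slit2 was near the threshold. The Slits are secreted ligands that repel axons through Robo receptors. Slit3 was at 10.8, 11.3 and 9.39 RPKM in Luc and at 6.90, 7.04 and 7.61 RPKM in Sfpq libraries, with no overlap (log2 fold change -0.516, SE 0.111, limma adjusted p = 0.0056). Slit2 was at 7.94, 7.26 and 7.58 RPKM in Luc and at 6.52, 6.08 and 6.35 RPKM in Sfpq libraries. These groups were also apart, with 83.2% of the Luc mean left, but the difference was not past the threshold (log2 fold change -0.247, SE 0.102, limma adjusted p = 0.0806). It passed with median-ratio scaling of the libraries (limma adjusted p = 0.0487) and without the third Luc library (limma adjusted p = 0.0478). Thus the ligands were at several RPKM while their receptors Robo1 and Robo2 were close to 0, with no poly(A) library above 0.0242 RPKM.

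Astn2, an astrotactin of neuronal migration, lay under the filter because its Sfpq libraries were nearly empty. It stood at 0.848, 0.566 and 0.582 RPKM in Luc and at 0, 0.0151 and 0.082 RPKM in Sfpq libraries. With no filter it was called lower (log2 fold change -1.13, limma adjusted p = 0.00103).

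**Figure D2:**
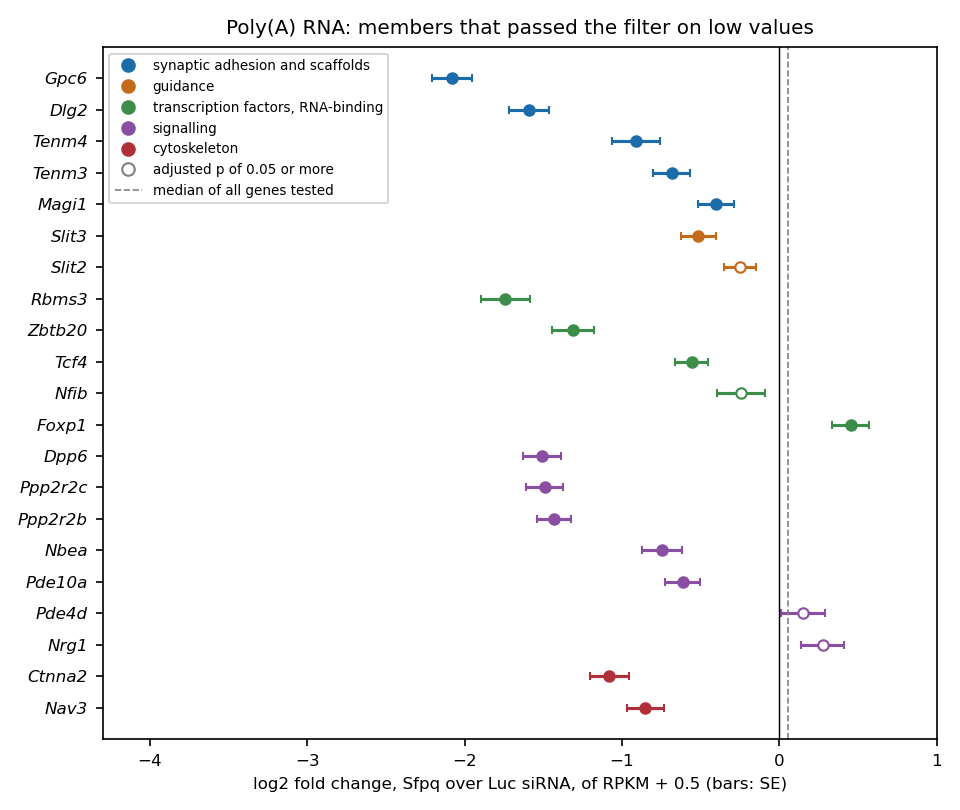
Log2 fold change in poly(A) RNA, Sfpq over Luc, of RPKM + 0.5 (x axis) for the 21 members tested, with SE bars, colours for the functional groups and open points for an adjusted p of 0.05 or more. All but Foxp1, Nrg1 and Pde4d lie left of 0, down to -2.08 for Gpc6, and the dashed line is the median of all genes tested, 0.0534.

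Transcription factors and RNA-binding proteins held both directions: of 5 tested among 10, Rbms3, Zbtb20 and Tcf4 fell, Foxp1 rose and Nfib did not pass. Their median log2 fold change was -0.556. Rbms3, a single-stranded RNA-binding protein, was at 1.21, 1.22 and 1.84 RPKM in Luc and at 0.0498, 0.0848 and 0.0726 RPKM in Sfpq libraries. The Sfpq libraries were near 0, which is the strongest relative fall of the members tested, although the scale shrinks its fold change (log2 fold change -1.74, SE 0.153, limma adjusted p = 3.67e-05). Zbtb20, a zinc finger repressor of brain development, was at 1.53, 1.94 and 1.86 RPKM in Luc and at 0.338, 0.497 and 0.421 RPKM in Sfpq libraries. All Sfpq libraries were low, at 23.6% of the Luc level (log2 fold change -1.31, SE 0.134, limma adjusted p = 8.87e-05).

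Tcf4, a basic helix-loop-helix factor of neuronal development, was the most abundant member of the group. It was at 11.6, 11.9 and 13.4 RPKM in Luc and at 7.85, 8.64 and 8.13 RPKM in Sfpq libraries, without overlap (log2 fold change -0.556, SE 0.106, limma adjusted p = 0.00303). Foxp1, a forkhead repressor, rose from 3.64, 3.92 and 4.49 RPKM in Luc to 5.45, 6.06 and 5.51 RPKM in Sfpq libraries. Every Sfpq library was above every Luc library, at 141% of the Luc level (log2 fold change 0.453, SE 0.117, limma adjusted p = 0.0132). Without the first Luc library the call was lost (limma adjusted p = 0.0677), and also without the second Sfpq library (limma adjusted p = 0.0698).

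Nfib, a nuclear factor I protein, was at 1.80, 1.89 and 2.73 RPKM in Luc and at 1.63, 1.64 and 1.86 RPKM in Sfpq libraries. The groups overlapped (log2 fold change -0.242, SE 0.151, limma adjusted p = 0.23). Its relative Nfia was far lower, at 0.0935, 0.09 and 0.105 RPKM in Luc and 0.0425, 0.0382 and 0.0248 RPKM in Sfpq libraries. Nfia was called lower with no filter (log2 fold change -0.156, limma adjusted p = 0.00878). Rbfox1, a splicing regulator of neurons, was at 0.404, 0.382 and 0.515 RPKM in Luc and at 0.113, 0.078 and 0.0751 RPKM in Sfpq libraries. It too was called lower with no filter (log2 fold change -0.664, limma adjusted p = 0.00109), whereas Rbfox3, the neuronal marker NeuN, had overlapping groups, from 0.0387 to 0.0691 RPKM in Luc and from 0.0234 to 0.15 RPKM in Sfpq libraries.

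Of 17 signalling and trafficking genes, 7 were tested and 5 fell: Dpp6, Ppp2r2c, Ppp2r2b, Nbea and Pde10a. The median log2 fold change was -0.746. Ppp2r2b and Ppp2r2c encode brain-enriched B-type regulatory subunits of protein phosphatase 2A, which steer the phosphatase to its substrates, and had the highest means of all members over the 6 libraries. That order holds for the Luc libraries, whereas in the Sfpq libraries Tcf4, Slit3 and Slit2 had higher means (8.21, 7.18 and 6.32 RPKM) than Ppp2r2c and Ppp2r2b (5.87 and 5.60 RPKM). Ppp2r2c was at 17.9, 19.1 and 15.3 RPKM in Luc and at 6.02, 5.43 and 6.16 RPKM in Sfpq libraries. Ppp2r2b was at 15.1, 15.5 and 17.1 RPKM in Luc and at 6.10, 5.35 and 5.34 RPKM in Sfpq libraries. Both stood well apart between groups, with 33.6% and 35.2% of the Luc mean left. The log2 fold change was -1.49 (SE 0.117, limma adjusted p = 1.93e-05) for Ppp2r2c and -1.43 (SE 0.108, limma adjusted p = 1.64e-05) for Ppp2r2b.

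Dpp6 is an auxiliary subunit of Kv4 potassium channels. It was at 1.24, 1.28 and 1.46 RPKM in Luc and at 0.125, 0.143 and 0.154 RPKM in Sfpq libraries, a narrow range in each group and far apart (log2 fold change -1.51, SE 0.121, limma adjusted p = 2.28e-05). Its relative Dpp10 did not exceed 0.00892 RPKM in any poly(A) library. Nbea, neurobeachin, which acts in membrane trafficking to synapses, was at 6.45, 5.94 and 7.88 RPKM in Luc and at 3.51, 3.93 and 3.97 RPKM in Sfpq libraries. The groups were apart (log2 fold change -0.746, SE 0.129, limma adjusted p = 0.00176).

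Of the phosphodiesterases, which break down cyclic nucleotides, Pde10a fell and Pde4d was not called. Pde10a was at 2.44, 2.44 and 2.56 RPKM in Luc and at 1.38, 1.57 and 1.40 RPKM in Sfpq libraries, all low (log2 fold change -0.614, SE 0.112, limma adjusted p = 0.00243). Pde4d was at 1.75, 1.54 and 1.89 RPKM in Luc and at 1.62, 2.02 and 2.30 RPKM in Sfpq libraries, with overlap (log2 fold change 0.15, SE 0.139, limma adjusted p = 0.42). The difference between them was not tested. Nrg1, a neuregulin ligand of ErbB receptors, was at 1.34, 1.67 and 1.79 RPKM in Luc and at 1.84, 1.95 and 2.32 RPKM in Sfpq libraries. The Sfpq libraries were all higher, but the difference was not past the threshold (log2 fold change 0.276, SE 0.136, limma adjusted p = 0.134).

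Under the filter, Prkg1, a cGMP-dependent protein kinase, and Fgf14, an intracellular partner of sodium channels, were called lower with no filter. Prkg1 had a mean of 0.4995 RPKM over the 6 libraries, just under the minimum, with 0.710, 0.717 and 1.16 RPKM in Luc and 0.104, 0.172 and 0.137 RPKM in Sfpq libraries (log2 fold change -1.08, limma adjusted p = 0.00238). Fgf14 was at 0.397, 0.394 and 0.663 RPKM in Luc and at 0.0408, 0.0549 and 0.0357 RPKM in Sfpq libraries (log2 fold change -0.846, limma adjusted p = 0.00256). In both genes the groups were far apart. Stxbp5l, a tomosyn of vesicle release, had groups that were apart but close, from 0.445 to 0.484 RPKM in Luc and from 0.499 to 0.543 RPKM in Sfpq libraries (limma adjusted p = 0.329 with no filter).

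Of 5 cytoskeletal genes, Ctnna2 and Nav3 were tested and both fell. Ctnna2, the alpha-N-catenin that links cadherins to actin in neurons, was at 2.35, 2.07 and 2.11 RPKM in Luc and at 0.653, 0.782 and 0.857 RPKM in Sfpq libraries. No Sfpq library came near the Luc range (log2 fold change -1.08, SE 0.123, limma adjusted p = 0.000165). Nav3, a neuron navigator that binds microtubules, was at 2.78, 2.72 and 2.68 RPKM in Luc and at 1.24, 1.45 and 1.18 RPKM in Sfpq libraries. The Luc libraries lay close together and above all Sfpq libraries (log2 fold change -0.85, SE 0.116, limma adjusted p = 0.000492). Dmd, Ctnnd2 and Nav2 were at or near 0, with no poly(A) library above 0.00365 RPKM.

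A single rise stood out among members under the filter. Cntnap2, or Caspr2, a neurexin-like adhesion protein of axons, was at 0.0361, 0.116 and 0.160 RPKM in Luc and at 0.747, 0.712 and 0.805 RPKM in Sfpq libraries. Every Sfpq library was several times above the highest Luc library, and the mean was 724% of Luc (log2 fold change with no filter 1.06, SE 0.0865, limma adjusted p = 0.000546). The call was kept without each library in turn. The rRNA-depleted pair stood at 0.155 RPKM in Luc and 0.794 RPKM in Sfpq. Its 2 rows kept a level ratio of 0.416 to 0.491 to each other in all libraries. Rows of a gene share exons and hence reads, so this ratio is no further measure of the rise. Which transcript of Cntnap2 rose is not shown.

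With no filter, 48 members could be tested, since 9 were at 0 in all 6 poly(A) libraries. Of these 48, 25 were called lower and 2 higher, Foxp1 and Cntnap2, against 13.3% lower and 14.6% higher of 17014 genes. The median log2 fold change was -0.241, against 0.0115 over all those genes. Among the 36 members under the minimum, 9 were called lower, 1 higher and 17 did not pass. The shares above cover all 17014 genes, over and under the minimum. A share over the genes under it alone is not given here, so these counts have no background of their own. Opcml, an IgLON adhesion protein, was at 0.172, 0.0908 and 0.108 RPKM in Luc and listed at 0 in all Sfpq libraries (log2 fold change -0.317, limma adjusted p = 0.00598). Csmd1, a complement regulator of synapses, was at 0.191, 0.124 and 0.157 RPKM in Luc and at 0.0553, 0.0669 and 0.0376 RPKM in Sfpq libraries, all of them lower (log2 fold change -0.248, limma adjusted p = 0.0102).

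Nrxn3, a presynaptic neurexin, was at 0.209, 0.197 and 0.110 RPKM in Luc and at 0.0664, 0.0939 and 0.0436 RPKM in Sfpq libraries (log2 fold change -0.24, limma adjusted p = 0.0409). Its groups were narrowly apart, and the call was lost without the first Luc library (limma adjusted p = 0.133), the second Luc library (0.125) or Sfpq replicate 1 (0.109), 2 (0.0835) or 3 (0.147). Fgf12, also an intracellular partner of sodium channels, was at 0.0359, 0.063 and 0.0773 RPKM in Luc and listed at 0 in the Sfpq libraries. It was called lower with no filter (log2 fold change -0.16, limma adjusted p = 0.0148). It lost its call without Sfpq replicate 2 (0.0561) or 3 (0.0544). The other 8 calls were kept without any 1 library. In the rRNA-depleted pair Nrxn3 was at 89.3% of Luc, against 39.5% in poly(A) RNA. The other members under the minimum called lower were at 0 to 38.5% of Luc in that pair. Tenm2 and Sorcs1, not called, were at 56.1% and 4.99% in poly(A) RNA and at 112% and 110% in that pair. With 1 library per group, these differences were not tested.

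Most members under the minimum were barely present in these cells in either group. A mean under 0.05 RPKM was found for 22, among them the neuroligin Nlgn1, the contactins Cntn1 and Cntn4, the protocadherins Pcdh7 and Pcdh9, Negr1, Ntm, Foxp2, Nrg3 and Lrp1b. Lrp1b, an endocytic receptor, was at 0.0168, 0.0418 and 0.0352 RPKM in Luc and at 0, 0 and 0.0026 RPKM in Sfpq libraries, which was not past the threshold (limma adjusted p = 0.0567). A further 14 lay between 0.05 RPKM and the minimum of 0.5 RPKM. At such levels a difference may not be detectable, a call may rest on few reads, and the read depth behind each value is unknown.

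**Figure D3:**
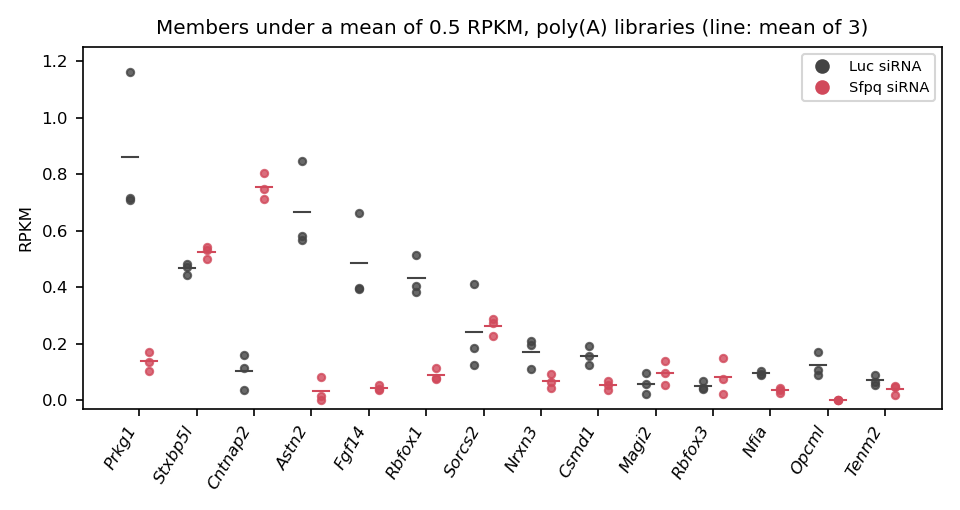
RPKM in each poly(A) library (points, with lines at the mean of 3) of the 14 members with a mean between 0.05 and 0.5 RPKM, Luc and Sfpq libraries side by side. Cntnap2 is higher in all 3 Sfpq libraries, while Astn2, Prkg1, Fgf14 and Rbfox1 are lower in all 3.

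The rRNA-depleted pair, which has no replicates and gives no test, showed lower values in Sfpq for 19 of the 20 members it could compare and a higher value for Foxp1, at 5.35 RPKM in Luc and 7.04 RPKM in Sfpq. Of all genes compared in this pair, 51.7% had a lower value in Sfpq. The median log2 ratio was -0.617, against -0.0192 over all genes. By at least 2-fold, 6 members were lower and 0 higher, against 5.18% lower and 1.65% higher of 11386 genes. Of these 6, Rbms3, Dlg2 and Gpc6 had Sfpq values of 0.265, 0.267 and 0.406 RPKM. They passed this pair's minimum mean of 0.5 RPKM through the Luc library alone, so their direction was fixed by it. The same holds for Ctnna2, at 0.456 RPKM in Sfpq, among the 19 lower members. The largest ratios were those of Rbms3, Zbtb20 and Ppp2r2c. Rbms3 stood at 4.06 RPKM in Luc and 0.265 RPKM in Sfpq (log2 ratio -2.57). Zbtb20 stood at 4.18 and 0.897 RPKM (log2 ratio -1.75), and Ppp2r2c at 12.8 and 3.51 RPKM (log2 ratio -1.74). The low Sfpq values of these genes in poly(A) RNA thus recurred in RNA that was not selected for poly(A) tails. Of them, Rbms3 had its direction fixed by the filter in both kinds of RNA, and Zbtb20 in poly(A) RNA.

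Poly(A) fold change and rRNA-depleted ratio had the same sign for 18 of the 20 members, a share near the 86.7% of 11208 genes measured in both. The 15 members called lower in poly(A) RNA with a ratio were all below 0, as were 99.8% of all genes so called. Gpc6, Dlg2 and Rbms3, whose direction the filter fixed in both kinds of RNA, are among the 15. The median gap between both values was 0.119 on the log2 scale. Rbms3 had the widest gap, 0.83, with the larger fall in rRNA-depleted RNA. Gpc6 had a smaller fall there, from 2.17 RPKM in Luc to 0.406 RPKM in Sfpq (log2 ratio -1.56). Pde4d, at 2.80 and 2.44 RPKM, and Nrg1, at 1.66 and 1.64 RPKM, were slightly lower in the rRNA-depleted Sfpq library and higher on average in the poly(A) Sfpq libraries. In the Luc libraries, levels of Rbms3 and Zbtb20 in poly(A) RNA were 0.351 and 0.425 times those in rRNA-depleted RNA, while Slit3 and Ctnna2 were at 1.90 and 1.84 times. The files of the 2 kinds of RNA were scaled separately, so this ratio is a description.

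**Figure D4:**
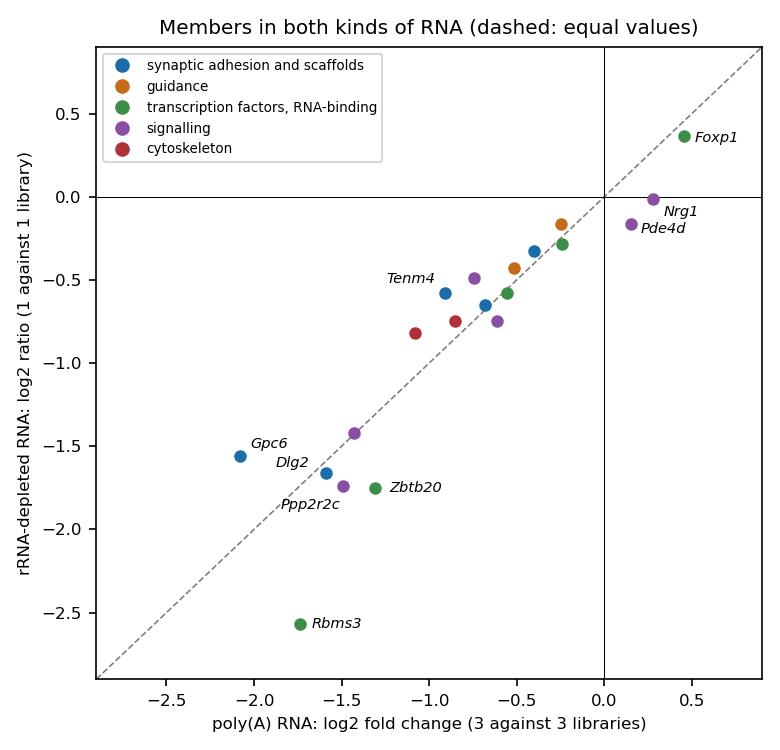
Log2 fold change in poly(A) RNA (x axis, 3 against 3 libraries) and log2 ratio in rRNA-depleted RNA (y axis, 1 against 1 library) of 20 members, coloured by functional group, with a dashed line of equal values. Rbms3 lies farthest below the line, and Foxp1 is the member above 0 on both axes.

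The deposited tables list transcripts, and 32 members had more than 1 row. For the 11 of them with several rows tested, every row of a gene had the same call. The widest spread was that of Dlg2, from -1.80 to -1.59 over 3 rows, and Magi1 ranged from -0.551 to -0.398 over 9 rows. Rows of a gene share exons and hence reads, so they are no independent measures.

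Members were also set beside 74 relatives that are not on the list. Most are family partners of members. Some are not: Srgap1, Srgap2 and Srgap3 act with Robo receptors, and Erbb2, Erbb3 and Erbb4 are neuregulin receptors. Fbrs and Fbrsl1 are relatives of Auts2, which is not analysed here. Of 42 relatives tested, 12 fell, 12 rose and 18 did not pass, with a median log2 fold change of 0.164; the shares over all genes were 18.6% lower and 21.3% higher. The relatives of the guidance genes differ from this pooled median, with 3 of 4 called lower and a median of -0.915, below the -0.382 of the guidance members. These 4 include Srgap2 and Srgap3, so that comparison is not within families. Without the second or the third Sfpq library, 6 relatives were called higher. No test compares relatives with members. The largest falls were those of Nav1 (log2 fold change -2.61, limma adjusted p = 1.56e-06), the cAMP phosphodiesterase Pde4b (-1.81, limma adjusted p = 2.24e-05) and Slit1 (-1.17, limma adjusted p = 0.000149). Nav1, Slit1 and Prkg2, all called lower, had Sfpq means of 0.421, 0.302 and 0.398 RPKM. They passed the filter through their Luc libraries alone, so their direction was fixed by it, also within the 12 that fell. Nav1, the partner of Nav3, was at 4.92, 5.69 and 4.77 RPKM in Luc and at 0.35, 0.448 and 0.466 RPKM in Sfpq libraries, so that both expressed navigators were lower after knockdown. Slit1 was at 1.31 ± 0.201 RPKM in Luc and 0.302 ± 0.0344 RPKM in Sfpq libraries (SD, n = 3), below Slit2 and Slit3 in level in both groups.

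The largest rises were those of Cntn2, a contactin that partners Cntnap2 on axons, from 0.488 to 1.57 RPKM (log2 fold change 1.07, limma adjusted p = 0.000207), of N-cadherin, Cdh2, from 4.03 to 8.68 RPKM (1.02, limma adjusted p = 0.000146), and of Nbeal1, from 0.69 to 1.37 RPKM (0.654, limma adjusted p = 0.00299). Cntn2 and Cntnap2 were thus both higher in every Sfpq library than in any Luc library, and Nbeal1 rose where its relative Nbea fell. With its Luc mean under 0.5 RPKM, Cntn2 passed the filter through its Sfpq libraries alone. Its direction was therefore fixed by the filter, also within the count of relatives that rose. By the mean over the 6 poly(A) libraries, the most abundant relative not called was Ppp2r2d, at 51.4 ± 4.96 RPKM in Luc and 53.6 ± 4.31 RPKM in Sfpq libraries (SD, n = 3, log2 fold change 0.062, limma adjusted p = 0.683). Ctnna1, the partner of Ctnna2 and also not called, was close to it in level, at 48.1 RPKM in Luc and 54.3 RPKM in Sfpq libraries (limma adjusted p = 0.158). Ppp2r2d belongs to the same family of phosphatase subunits as Ppp2r2b and Ppp2r2c, whose levels fell. Ppp2r2a, named after its values were seen, fell from 20.4 to 12.7 RPKM (log2 fold change -0.654, limma adjusted p = 0.00205), less than either member by fold, a difference that was not tested.

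Further partners, also named after their values were seen, had calls in the direction of the member, in the other direction or none, and no difference within a family was tested. Gpc1 fell from 15.3 to 6.95 RPKM as Gpc6 did (log2 fold change -1.09, limma adjusted p = 8.84e-05). Dlg1 rose from 9.87 to 14.1 RPKM while Dlg2 fell (log2 fold change 0.509, limma adjusted p = 0.0171), a call lost without the first Luc library (limma adjusted p = 0.0721) or Sfpq replicate 2 (0.0648) or 3 (0.0644). Dlg3 fell as Dlg2 did, from 1.29 to 0.804 RPKM (log2 fold change -0.456, limma adjusted p = 0.0151), a call lost without the first Luc library (limma adjusted p = 0.0555) or Sfpq replicate 2 (0.0793). Dlg4, at 18.6 RPKM in Luc and 21.8 RPKM in Sfpq libraries, did not pass (limma adjusted p = 0.209). Rbms2 rose from 5.00 to 7.32 RPKM (log2 fold change 0.509, limma adjusted p = 0.00452) and Rbms1 fell from 39.8 to 28.5 RPKM (log2 fold change -0.474, limma adjusted p = 0.0044), beside the near loss of Rbms3. Tcf12, the partner of Tcf4 at 19.1 RPKM in Luc and 20.9 RPKM in Sfpq libraries, did not pass (limma adjusted p = 0.411).

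**Figure D5:**
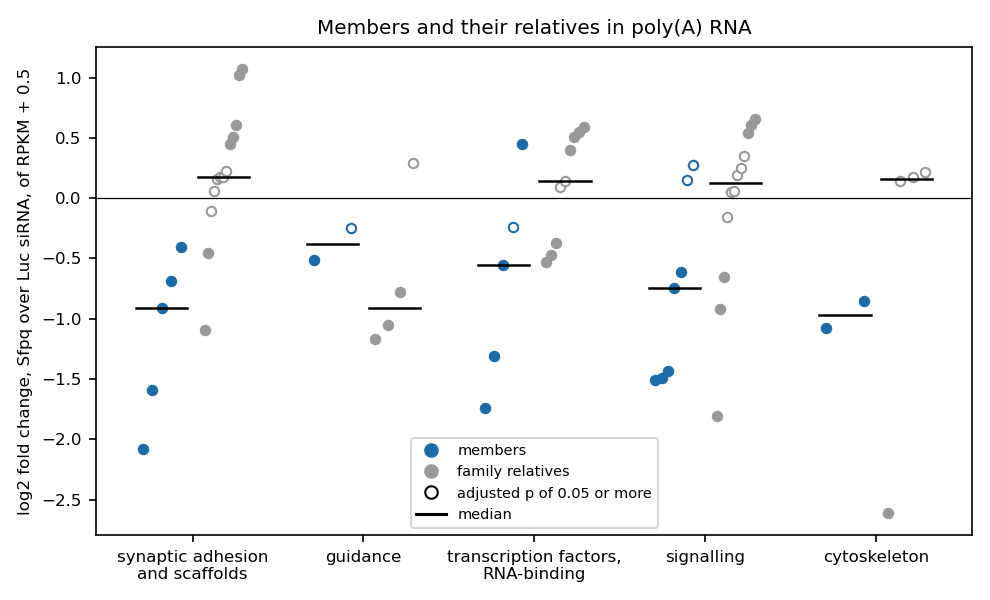
Log2 fold changes in poly(A) RNA (y axis, of RPKM + 0.5) of members tested and of their relatives tested, by functional group. Lines are at each median, and open points have an adjusted p of 0.05 or more. Most relatives are family partners. The median of the 21 members is -0.746 and that of the 42 relatives 0.164, and relatives lie on both sides of 0.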

How the data were processed

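RNA of Neuro-2a cells was sequenced on the Ion Proton system (source: per the labels' protocols). Sample titles gave the groups and replicate numbers; for Sfpq poly(A) replicate 2 the description carries another number. RNA polymerase II immunoprecipitation is not analysed here. Reads were aligned with TopHat2 2.0.10 to mm9, per the submitters' processing notes. The authors deposited RPKM per RefSeq transcript, per the file headers; which program counted reads, and on which annotation release, is not given in the sources used here; the depth is unknown.

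Of 30978 rows, 30507 (98.5%) were named through RefSeq accessions (GRCm38.p6, names only, since the builds differ), and 471 were not. The row with the highest mean over the 8 libraries stood for a gene. Members and lists were chosen with earlier results of these data known.

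The poly(A) comparison used limma 3.58.1 (R 4.3.3) with a trended prior on log2(RPKM + 0.5), a minimum mean of 0.5 RPKM and Benjamini-Hochberg adjustment at 0.05. The fit was tested on simulated data. The rRNA-depleted pair was described by log2 ratios of RPKM + 0.5 where its mean was at least 0.5 RPKM, with 2-fold as the limit. Alternatives were pseudocounts of 0.1 and 1, no filter, a minimum of 2 RPKM, median-ratio and quantile scaling, no trend, the mean of a gene's rows, a replicate block and leaving out each library. The alternatives for members under the filter, for each relative and for relatives called higher were added after seeing the data. Named were every member called; per group, the 4 largest called changes and the 2 most abundant members by library; the highest member under the filter; and of relatives, the 3 largest called changes in each direction and the most abundant not called. Members beyond this rule were named after their values were seen. Tables and figures were made with pandas 2.3.3, numpy 2.4.6 and matplotlib 3.10.9 in Python 3.11.15.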

Additional observations from a re-analysis of the deposited data

Results flagged for a closer look

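Nrg1 was higher in every Sfpq than in every Luc library of poly(A) RNA, at 0.276 on the log2 scale, while the rRNA-depleted pair had a log2 ratio of -0.016. The opposite signs drew attention to it; with 1 library per group in rRNA-depleted RNA, the difference was not tested.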

How the results depend on the processing

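For the members tested, 297 of 304 values under the alternatives kept their direction and their side of the threshold and 0 reversed; 18 of 21 members kept both in every alternative run, the exceptions being Magi1, Slit2 and Foxp1. With no filter, the members called lower numbered 25 and those higher 2, with a median log2 fold change of -0.24; the groups then had 8 (adhesion), 2 (guidance), 5 (transcription factors) and 8 (signalling) called lower, with medians of -0.24 for adhesion, -0.25 for guidance, -0.15 for signalling and -0.43 for the cytoskeleton. With a minimum of 2 RPKM, 10 members were tested and 8 called lower: 2 in adhesion (median -0.54), 1 among transcription factors (median -0.05), 3 in signalling (median -1.43) and 1 in the cytoskeleton (median -0.85). In both, the set of genes tested differs by construction. A pseudocount of 0.1 gave medians of -1.17 for adhesion and -1.21 for the cytoskeleton, and 1 gave -0.78 for the cytoskeleton. Median-ratio scaling called 2 guidance genes lower. Without each library in turn, the members called lower ranged from 15 to 17 and those higher from 0 to 1, guidance genes lower from 1 to 2, the signalling median from -0.83 to -0.64, and relatives called higher from 6 to 16. The rRNA-depleted median was -0.68 and -0.57 with pseudocounts of 0.1 and 1, -0.17 with no filter, -0.58 with a minimum of 2 RPKM, -0.61 with median-ratio and -0.57 with quantile scaling. Same-numbered libraries correlated in their deviations from the group means at 0.33, -0.035 and 0.157 for numbers 1, 2 and 3, so the numbers do not pair all libraries; with the replicate block 16 members were called lower and 1 higher. The number of libraries, and RPKM without read counts, limit the precision.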
